A study of Homo sapiens with 26 samples.

Results

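The genes described here encode proteins of the extracellular matrix and proteins that bind it: fibronectin and matricellular proteins, collagens, basement membrane proteins, microfibril proteins that hold TGF-beta, and proteoglycans. They were taken by symbol from a list of 40 names. The rule holds no measured value, but the list was chosen with earlier results of these data known. Of the 40, 33 were listed in each of the 3 tables of values used. The tables listed 11823 genes (SART1), 11679 genes (DDX39A and SARNP) and 12140 genes (FIBP and TMEM259). THBS2, COL1A2, COL3A1, COL5A1, LAMA4, FBN2 and FBLN1 were not listed in any of them and were not analysed here. All 33 listed genes passed the filter on low values, a table mean of at least 10.

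RNA came from 786-O, an established line of clear cell renal carcinoma without working VHL. Cells were transfected with siRNA using DharmaFECT 1, split after 24 h and harvested at 48 h. The groups, of 2 libraries each, were SART1 siRNA 4 and SART1 siRNA 6 with the controls of their table, DDX39A siRNA 1, DDX39A siRNA 4, SARNP siRNA 3 and SARNP siRNA 9 with 1 control group for all of these, and FIBP siRNA 6, FIBP siRNA 7, TMEM259 siRNA 5 and TMEM259 siRNA 6 with 1 further control group. TMEM259 is labelled C19orf6 in sample titles. Control cells received a non-targeting siRNA, whose libraries are titled NTC (DDX39A and SARNP) or NEGsiRNA (SART1; FIBP and TMEM259), while the protocol, the same for every library, names a single commercial product. The series describes the 5 targets as genes of nuclear speckle proteins. The labels do not say if duplicate libraries were transfected separately. The p-values rest on the spread between duplicates, which may be technical. That spread was pooled over the groups of a table and drawn towards that of genes of similar signal.

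The extracellular matrix is the protein network outside cells. Interstitial matrix holds fibrillar collagens, fibronectin and proteoglycans, while basement membranes are sheets of type IV collagen and laminin joined by nidogens and perlecan. Cells attach to both through integrins and syndecans, and matricellular proteins such as thrombospondin and tenascin alter that attachment. In the kidney, tubule cells rest on a basement membrane, and tumours of tubule origin can make matrix themselves.

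Total gene reads were 21710821 to 26128173 per library in the SART1 table, 9959064 to 18086176 in the DDX39A and SARNP table and 8966609 to 17018483 in the FIBP and TMEM259 table. The targeted mRNA was left at 8.48% to 48.3% of control, with TMEM259 siRNA 6 leaving the most. All 8 markers of a renal tubule carcinoma line were listed in each table. Of 8 fibroblast markers, COL1A1 and PDGFRB were listed in each table and LUM in all but the DDX39A and SARNP table, none of 4 endothelial markers was listed, and of 4 leukocyte markers CD68 alone. Values are normalized signal per gene, not divided by gene length, so levels are compared between groups and not between genes. Tables were normalized apart, so levels are not compared between tables. In bulk RNA, fewer cells that express a gene and less RNA per cell cannot be told apart.

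A gene was called when limma's test on log2(value + 1), fitted over all genes of a table, gave a two-sided Benjamini-Hochberg adjusted p below 0.05. Changes are log2 changes of an siRNA over the controls of its table, on that scale, with the SE of the model. Most matrix genes rose with DDX39A siRNA 4, and more fell than rose with SART1 siRNA 4, SARNP siRNA 9, FIBP siRNA 7, TMEM259 siRNA 6 and, by 1 gene, SARNP siRNA 3. Both siRNAs of a target share 2 control libraries, as do both targets of a shared table, so their calls are not independent. The shares of all genes given below were not matched for signal. High-signal genes had small SEs, so smaller changes could be called. The median SE of the 33 genes was 0.04 or 0.05. Median absolute called changes were 0.29 with FIBP siRNA 7 and 0.22 with TMEM259 siRNA 6, against 0.31 and 0.25 for all genes. With each other siRNA they were larger in the matrix genes. The part of signal in the shares was not tested.

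With DDX39A siRNA 4, 27 of 33 matrix genes (81.8%) rose and 1 fell, against 25.3% and 23.7% of all tested genes called higher and lower. The gene that fell was COL8A1, whose call was lost without control replicate 1 (log2 -0.15), control replicate 2 (log2 -0.14) or DDX39A siRNA 4 replicate 2 (log2 -0.09). With DDX39A siRNA 1, 15 (45.5%) rose and 4 (12.1%) fell, against 17.1% and 16.1% of all genes. With both DDX39A siRNAs 13 of 33 rose and 0 fell, against 8.67% and 6.37% of all genes. The median change of the 33 genes was 0.41 with siRNA 4 and 0.09 with siRNA 1, while the median over all genes was 0.00 with either. The genes' joint share of gene reads was 1.997% and 1.903% in the DDX39A siRNA 4 libraries and 1.513% and 1.508% with siRNA 1, against 1.403% and 1.37% in their controls.

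SART1 siRNA 4 lowered 16 of 33 genes and raised 6, against 28.2% and 29.5% of all tested genes called lower and higher. SART1 siRNA 6 raised 13 and lowered 8, against 32.5% and 30.5%, beside 39.4% and 24.2% of the matrix genes. With both SART1 siRNAs, 5 rose and 6 fell (15.2% and 18.2%), against 22.9% and 20% of all genes. The median changes were -0.23 with siRNA 4 and 0.05 with siRNA 6.

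SARNP siRNA 9 lowered 17 of 33 genes (51.5%) and raised 9 (27.3%), against 29.4% and 29% of all genes. SARNP siRNA 3 raised 11 (33.3%) and lowered 12 (36.4%), against 20.3% and 21%. With both, 4 rose and 8 fell (12.1% and 24.2%), against 7.17% and 7.15%, and 9 (27.3%) were called in opposite directions, against 13% of all genes. The median changes were -0.01 with siRNA 3 and -0.20 with siRNA 9.

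FIBP siRNA 7 lowered 18 of 33 genes (54.5%) and raised 6 (18.2%), against 17.5% and 16.6% of all genes. With FIBP siRNA 6, 13 genes (39.4%) were called, against 22.6% of all genes called in either direction. Of the 33, 8 (24.2%) rose and 5 (15.2%) fell, where 1269 and 1391 of all 11768 tested genes did so. With both, 4 rose and 3 fell (12.1% and 9.09%), against 4.68% and 4.39%. With TMEM259 siRNA 5, 10 genes (30.3%) were called, against 22.8% of all genes called in either direction. Of the 33, 8 (24.2%) rose and 2 (6.06%) fell, where 1274 and 1410 of all 11768 tested genes did so. TMEM259 siRNA 6 raised 6 (18.2%) and lowered 10 (30.3%), against 9.36% and 10%. With both TMEM259 siRNAs, 3 rose and 2 fell (9.09% and 6.06%), against 2.56% and 2.41%. That count of 5 was 3 without control replicate 1, without TMEM259 siRNA 6 replicate 1 or without TMEM259 siRNA 6 replicate 2.

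**Figure D1:**
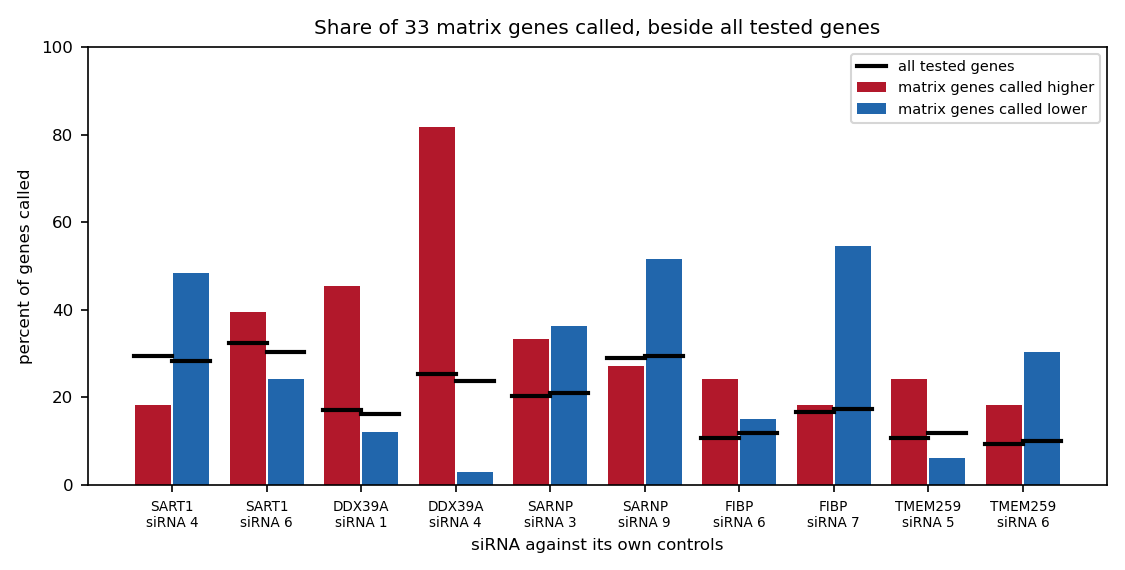
Percent of the 33 listed matrix genes called higher (red) and lower (blue) with each siRNA over its own controls, and black lines for the percent of all tested genes called in the same direction. DDX39A siRNA 4 stands apart from its lines, with 81.8% of the matrix genes called higher against 25.3% of all genes.

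**Figure D2:**
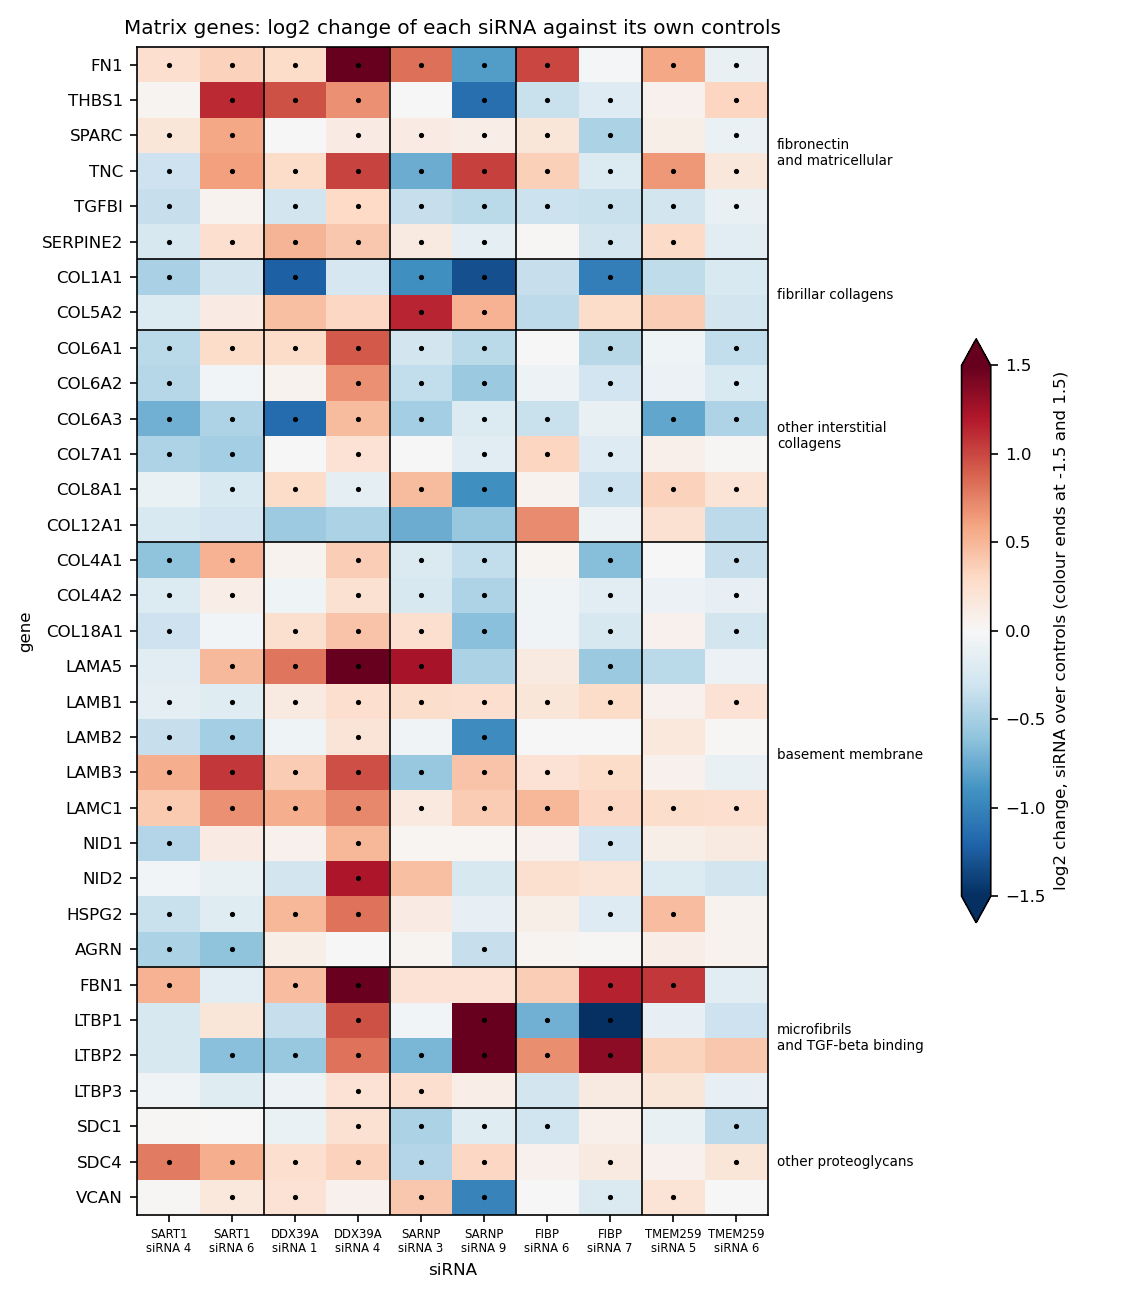
Log2 change of each of the 33 listed matrix genes (rows, grouped by role) with each siRNA over the controls of its table (columns), red for higher and blue for lower, with a dot where the gene was called. LAMC1 is red and called in all 10 columns, COL12A1 is called in none, and COL6A3 is called lower in 8.

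Fibronectin (FN1) is a large glycoprotein that links cells to the interstitial matrix. FN1 read 49350 and 46120 with DDX39A siRNA 4 and 21010 and 19810 with DDX39A siRNA 1, against 16800 and 16790 in their controls. Both DDX39A siRNA 4 libraries lay far above every other library of that table, and the siRNA 1 libraries lay above the controls. The change was 1.51 with siRNA 4 (SE 0.04, adjusted p = 2.1e-26), a 2.84-fold higher level, and 0.28 with siRNA 1 (SE 0.04, adjusted p = 2.3e-06). FN1 read 29660 and 30020 with SARNP siRNA 3 and 9723 and 9117 with SARNP siRNA 9, against the same controls. The SARNP siRNAs thus stood on opposite sides of the control libraries, with changes of 0.83 and -0.84 (SE 0.04, adjusted p = 1.7e-18 and 4.4e-19).

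FN1 read 43380 and 40470 with FIBP siRNA 6 and 21160 and 19870 with FIBP siRNA 7, against 20300 and 21500 in controls. It was 2.01-fold higher with siRNA 6 (log2 1.00, SE 0.03, adjusted p = 1.3e-26), and the siRNA 7 libraries overlapped the controls (log2 -0.03, adjusted p = 0.59). TMEM259 siRNA 5 gave 31620 and 30900, above all of these controls (log2 0.58, SE 0.03, adjusted p = 1.5e-17). TMEM259 siRNA 6 gave 18870 and 19740, just under the controls (log2 -0.11, SE 0.03, adjusted p = 0.013), a call lost without control replicate 2 (log2 -0.07) or without TMEM259 siRNA 6 replicate 1 (log2 -0.08). SART1 siRNA 4 gave 51570 and 51790 and siRNA 6 gave 54270 and 56080, against 43070 and 43900 in their controls. These small rises were called (log2 0.25 and 0.34, SE 0.03, adjusted p = 9.5e-08 and 4.2e-10). FN1 rose with 7 of 10 siRNAs in all, and with both siRNAs of SART1 and of DDX39A.

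Thrombospondin 1 (THBS1) is a secreted matricellular protein that can release TGF-beta from its latent form. Its promoter is shown because THBS1 met the rule for values per library in 3 of the 5 targets, as did FBN1 and COL1A1, described further on. The window is chr15:39580829-39581128 on the plus strand of GRCh38.p14 from RefSeq, 250 bases before to 50 bases after the annotated start, with capitals for matches on either strand to CCAAT or GGGCGG, where neighbouring matches run together.
THBS1: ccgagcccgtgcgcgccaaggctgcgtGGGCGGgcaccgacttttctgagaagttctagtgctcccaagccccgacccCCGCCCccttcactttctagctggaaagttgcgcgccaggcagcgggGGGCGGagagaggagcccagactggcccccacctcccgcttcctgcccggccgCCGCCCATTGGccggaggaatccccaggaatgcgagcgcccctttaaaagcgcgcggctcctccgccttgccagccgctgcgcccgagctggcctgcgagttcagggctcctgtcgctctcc
The window holds 4 matches to GGGCGG and 1 to CCAAT, and none to TATAAA. Of the 36 windows of matrix genes, found for 28 of 33 genes, 83.3% held GGGCGG, 25% CCAAT and 8.33% TATAAA, beside 66.2%, 34.8% and 6.02% of the windows of all genes in the tables. A match is a run of letters and not a shown binding site.

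THBS1 read 38320 and 37610 with SART1 siRNA 6 and 18800 and 17180 with SART1 siRNA 4, against 17830 and 17140 in their controls. It was 2.17-fold higher with siRNA 6 (log2 1.12, SE 0.04, adjusted p = 2.2e-17), while the siRNA 4 libraries overlapped the controls (log2 0.04, adjusted p = 0.35). THBS1 read 18450 and 19940 with DDX39A siRNA 1 and 16820 and 15000 with siRNA 4, against 9692 and 10020 in controls. It was higher in all 4 DDX39A libraries (log2 0.96 and 0.69, SE 0.05, adjusted p = 9.1e-19 and 3.5e-15). With SARNP siRNA 9 it read 4558 and 4432, below the same controls (log2 -1.13, SE 0.05, adjusted p = 5.6e-22), and with SARNP siRNA 3 9575 and 10050, overlapping them (log2 -0.01, adjusted p = 0.93). THBS1 fell with both FIBP siRNAs, by 0.33 and 0.19 on the log2 scale, where the siRNA 7 call was lost without FIBP siRNA 7 replicate 2 (log2 -0.10, adjusted p = 0.075).

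Tenascin C (TNC), a matricellular protein of remodelled tissue, was called with all 10 siRNAs, higher with 7 and lower with 3. TNC read 3117 and 2914 with DDX39A siRNA 4 and 1865 and 1773 with siRNA 1, against 1518 and 1477 in controls. It rose with both (log2 1.01 and 0.28, SE 0.05, adjusted p = 5.6e-19 and 3.3e-05), and no library of these groups overlapped another group. With SARNP it read 862 and 919.5 for siRNA 3 and 3055 and 3067 for siRNA 9, on opposite sides of the same controls (log2 -0.75 and 1.03, SE 0.05, adjusted p = 4.1e-15 and 1e-19). TNC rose with both TMEM259 siRNAs (log2 0.65 and 0.17), where the siRNA 6 call was lost without control replicate 1 (log2 0.14) or TMEM259 siRNA 6 replicate 2 (log2 0.09). The SART1 siRNAs gave -0.31 and 0.61, and the FIBP siRNAs 0.36 and -0.21, each of them called.

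TGFBI, a TGF-beta induced adhesion protein, fell with 8 siRNAs, by 0.11 to 0.40 on the log2 scale, rose by 0.30 with DDX39A siRNA 4 and was not called with SART1 siRNA 6 (log2 0.05). Under quantile normalization the fall of TGFBI with TMEM259 siRNA 5 shrank to -0.08 (adjusted p = 0.11) and that with siRNA 6 to -0.09 (adjusted p = 0.066). The siRNA 6 call was also lost without control replicate 2 (log2 -0.05) or TMEM259 siRNA 6 replicate 1 (log2 -0.06). SPARC, a collagen-binding glycoprotein, rose with 6 siRNAs, most with SART1 siRNA 6 (0.58), and fell with 2, most with FIBP siRNA 7 (-0.48). Its other called changes were at most 0.18 in size. SERPINE2, a matrix-bound protease inhibitor also called protease nexin 1, rose with both DDX39A siRNAs, by 0.51 and 0.41. Of the 51 calls among these 6 genes, 12 were lost when 1 of the 4 libraries compared was left out, all of them with an absolute change under 0.30.

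**Figure D3:**
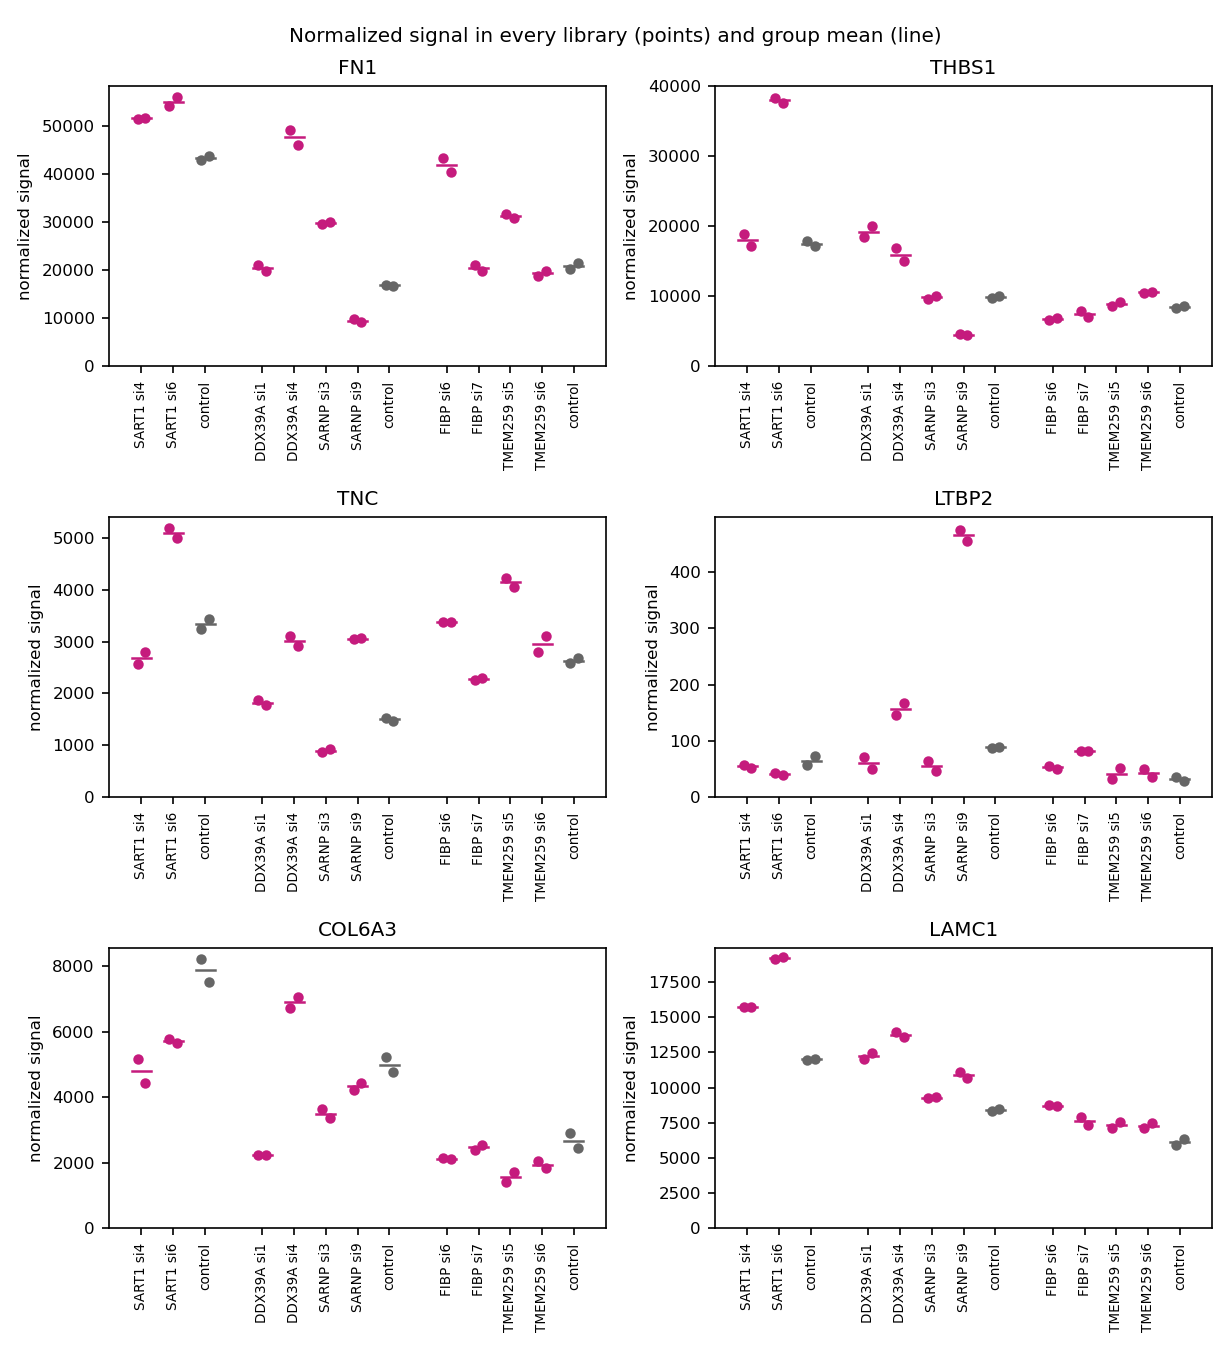
Normalized signal of 6 matrix genes in every library (points, siRNA libraries in magenta and controls in grey) with the group mean (line), each control group standing to the right of the siRNAs of its table. FN1 reaches 49350 and 46120 with DDX39A siRNA 4 against 16800 and 16790 in its controls, and LTBP2 reaches 476.1 and 456.3 with SARNP siRNA 9 against 86.99 and 89.71.

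Of the fibrillar collagens, the rope-like collagens of interstitial matrix, only COL1A1 and COL5A2 were listed, both at low signal. COL1A1, the alpha 1 chain of type I collagen, was lower with 5 siRNAs and higher with 0. It read 39.66 and 40.98 with SARNP siRNA 3 and 33.09 and 27.77 with SARNP siRNA 9, against 79.57 and 74.76 in controls, so all 4 knockdown libraries lay below both controls (log2 -0.92 and -1.32, SE 0.22, adjusted p = 0.00093 and 3.8e-06). DDX39A siRNA 1 gave 26.73 and 38.96, also below these controls (log2 -1.23, SE 0.22, adjusted p = 3.3e-05). DDX39A siRNA 4 gave 74.9 and 55.92, which overlapped them (log2 -0.25, adjusted p = 0.37).

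COL1A1 read 28.94 and 24.36 with FIBP siRNA 7 and 35.33 and 53.14 with siRNA 6, against 51.92 and 59.55 in controls. The siRNA 7 libraries lay below the controls (log2 -1.04, SE 0.23, adjusted p = 0.00041), and those of siRNA 6 overlapped them (log2 -0.35, adjusted p = 0.3). The fall with SART1 siRNA 4 (log2 -0.49, SE 0.17, adjusted p = 0.015) was lost under quantile normalization (log2 -0.28, adjusted p = 0.16), without control replicate 2 (log2 -0.42) or without SART1 siRNA 4 replicate 1 (log2 -0.42). COL1A1 is itself a fibroblast marker, and the marker PDGFRB was also lower in places, at -1.57 with SART1 siRNA 4 and -1.29 with FIBP siRNA 7, both called. PDGFRB was called with no other siRNA, and so not with DDX39A siRNA 1 or either SARNP siRNA, which lowered COL1A1. LUM, the third marker listed in those tables, was not called with either, at -0.05 (adjusted p = 0.85) with SART1 siRNA 4 and -0.42 (adjusted p = 0.42) with FIBP siRNA 7. The 3 listed fibroblast markers, COL1A1 included, summed to 126 and 146 with SART1 siRNA 4, against 194 and 199 in controls, and to 66.1 and 40.6 with FIBP siRNA 7, against 93.2 and 109. PDGFRA, DCN, POSTN, COL1A2 and COL3A1 were not listed, and the part of such cells in the result was not tested.

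COL5A2, a chain of the type V collagen that seeds type I fibrils, read 120 and 96.68 with SARNP siRNA 3 and 66.18 and 73.4 with siRNA 9, against 51.98 and 44.85 in controls. All 4 SARNP libraries lay above both controls (log2 1.14 and 0.52, SE 0.22, adjusted p = 5e-05 and 0.039). The siRNA 9 call was lost on leaving out any of its 4 libraries, with changes of 0.42 to 0.62 and an adjusted p of up to 0.22. COL5A2 was called with no other siRNA, at -0.39 to 0.45.

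Type VI collagen is a microfibril-forming collagen at the border of basement membranes, assembled from 3 chains, and COL6A1, COL6A2 and COL6A3 encode chains of it. COL6A3 fell with 8 siRNAs and rose with DDX39A siRNA 4. It read 2229 and 2235 with DDX39A siRNA 1 and 6715 and 7072 with DDX39A siRNA 4, against 5218 and 4763 in controls. The DDX39A siRNAs stood on opposite sides of the controls without overlap (log2 -1.16 and 0.47, SE 0.05, adjusted p = 3.7e-21 and 1.5e-10). COL6A3 also fell with both siRNAs of SART1 (-0.72 and -0.46), SARNP (-0.51 and -0.20) and TMEM259 (-0.78 and -0.46). With FIBP siRNA 6 it fell by 0.33, a call lost without control replicate 1 (log2 -0.20, adjusted p = 0.057).

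The 3 chains did not always move the same way. With DDX39A siRNA 4 all 3 rose, COL6A1 by 0.92, COL6A2 by 0.69 and COL6A3 by 0.47. With both SARNP siRNAs all 3 fell, and likewise with SART1 siRNA 4 and TMEM259 siRNA 6. With SART1 siRNA 6, COL6A1 rose by 0.28 (SE 0.06, adjusted p = 0.00025) while COL6A3 fell by 0.46 (SE 0.05, adjusted p = 3.1e-08). With DDX39A siRNA 1, COL6A1 rose by 0.28 (SE 0.07, adjusted p = 0.0012) while COL6A3 fell by 1.16, the COL6A1 call being lost without DDX39A siRNA 1 replicate 1 (log2 0.19).

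**Figure D4:**
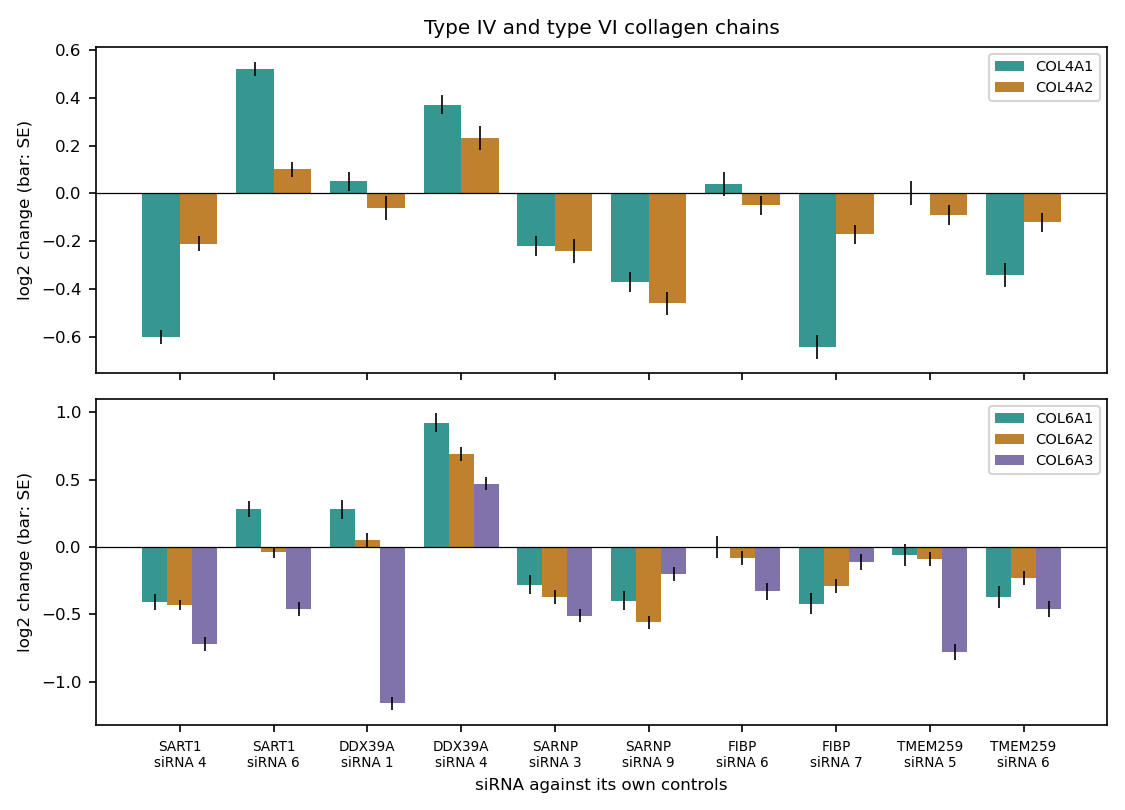
Log2 change over controls of the type IV chains COL4A1 and COL4A2 (upper panel) and the type VI chains COL6A1, COL6A2 and COL6A3 (lower panel) with each siRNA, where bars are the change and lines 1 SE. The type IV chains share their sign wherever both were called, while COL6A3 stands at -1.16 with DDX39A siRNA 1 beside 0.28 for COL6A1.

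Among the remaining interstitial collagens, COL7A1, the collagen of anchoring fibrils, fell with both SART1 siRNAs (log2 -0.46 and -0.51, SE 0.04) and stood at -0.19 to 0.32 with the other siRNAs. Among these it was called higher with FIBP siRNA 6 (0.32) and DDX39A siRNA 4 (0.22), and lower with FIBP siRNA 7 (-0.19) and SARNP siRNA 9 (-0.16). The FIBP siRNA 7 call was lost without FIBP siRNA 7 replicate 2 (log2 -0.10). The SARNP siRNA 9 call was lost without control replicate 1 (log2 -0.12). COL8A1, a network collagen of vessel walls, rose by 0.48 with SARNP siRNA 3 and fell by 0.92 with SARNP siRNA 9 (SE 0.06, adjusted p = 1.2e-08 and 1.4e-16). It rose with both TMEM259 siRNAs, by 0.34 and 0.21, the siRNA 6 call being lost without control replicate 1 (log2 0.16) or without TMEM259 siRNA 6 replicate 1 or 2 (log2 0.21 each). COL12A1, a fibril-associated collagen, was called with none of the 10 siRNAs, at changes of -0.75 to 0.71 with an SE of 0.24 to 0.44.

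COL4A1 and COL4A2 encode the chains of the type IV collagen common to most basement membranes, and they lie head to head on chromosome 13. Their promoter windows are shown because these genes are neighbours in the genome. The windows are chr13:110307108-110307407 on the minus strand for COL4A1 and chr13:110307034-110307333 on the plus strand for COL4A2, both in GRCh38.p14 from RefSeq. Capitals mark the 226 bases the windows share, read on opposite strands, and the annotated starts lie 127 bases apart.
COL4A1: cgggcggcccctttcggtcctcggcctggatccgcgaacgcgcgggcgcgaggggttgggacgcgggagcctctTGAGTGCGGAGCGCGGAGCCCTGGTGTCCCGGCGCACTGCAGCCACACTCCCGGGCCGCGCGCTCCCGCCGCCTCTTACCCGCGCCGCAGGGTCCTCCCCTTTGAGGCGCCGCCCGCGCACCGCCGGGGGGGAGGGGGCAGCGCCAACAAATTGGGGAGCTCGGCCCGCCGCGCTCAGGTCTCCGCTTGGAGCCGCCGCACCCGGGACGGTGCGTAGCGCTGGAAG
COL4A2: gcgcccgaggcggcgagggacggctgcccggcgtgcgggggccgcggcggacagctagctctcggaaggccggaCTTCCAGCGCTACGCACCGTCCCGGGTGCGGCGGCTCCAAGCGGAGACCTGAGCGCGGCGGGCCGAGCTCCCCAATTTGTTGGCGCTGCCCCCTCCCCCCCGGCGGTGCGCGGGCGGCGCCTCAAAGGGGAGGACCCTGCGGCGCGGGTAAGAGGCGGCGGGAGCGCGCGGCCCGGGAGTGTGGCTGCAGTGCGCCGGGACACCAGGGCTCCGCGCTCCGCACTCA
Each gene was called with 7 of 10 siRNAs, the same 7 for both and with the same sign in each, and neither was called with DDX39A siRNA 1, FIBP siRNA 6 or TMEM259 siRNA 5.

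COL4A1 read 11140 and 11310 with SART1 siRNA 4 and 24610 and 24210 with SART1 siRNA 6, against 16630 and 17470 in controls. The SART1 siRNAs lay on opposite sides of the controls (log2 -0.60 and 0.52, SE 0.03, adjusted p = 1.6e-13 and 2.1e-12). COL4A2 showed -0.21 and 0.10 with the same siRNAs (SE 0.03, adjusted p = 5.2e-06 and 0.012). Its rise with SART1 siRNA 6 reversed under quantile normalization (log2 -0.13, adjusted p = 0.00069), and the call was lost without control replicate 1 (log2 0.09) or SART1 siRNA 6 replicate 1 (log2 0.05). Both genes fell with both SARNP siRNAs, COL4A1 by 0.22 and 0.37 and COL4A2 by 0.24 and 0.46. FIBP siRNA 7 lowered COL4A1 by 0.64 (SE 0.05, adjusted p = 4.4e-15) and COL4A2 by 0.17 (SE 0.04, adjusted p = 0.00028), where the second call was lost without FIBP siRNA 7 replicate 2 (log2 -0.11). TMEM259 siRNA 6 lowered COL4A1 by 0.34 and COL4A2 by 0.12, and the second was lost without control replicate 2 (log2 -0.08) or TMEM259 siRNA 6 replicate 1 (log2 -0.11).

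Laminins are trimers of an alpha, a beta and a gamma chain. LAMC1, the gamma 1 chain found in most laminins, was the matrix gene that rose with all 10 siRNAs, where 28 of the 11486 genes tested in all tables (0.244%) did so. It was singled out after its values were seen. LAMC1 read 15710 and 15750 with SART1 siRNA 4 and 19150 and 19270 with siRNA 6, against 11970 and 12020 in controls (log2 0.39 and 0.68, SE 0.03, adjusted p = 1e-10 and 6.9e-15). It read 12060 and 12460 with DDX39A siRNA 1 and 13940 and 13610 with siRNA 4, against 8299 and 8448 in controls (log2 0.55 and 0.72, SE 0.04, adjusted p = 1.2e-13 and 1.4e-17). Neither pair overlapped its controls, and siRNA 6 of SART1 and siRNA 4 of DDX39A gave the higher values.

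Against the same controls as DDX39A, LAMC1 read 9232 and 9309 with SARNP siRNA 3 and 11130 and 10710 with siRNA 9 (log2 0.15 and 0.38, SE 0.04, adjusted p = 0.003 and 2e-10). It read 8740 and 8692 with FIBP siRNA 6 and 7911 and 7325 with FIBP siRNA 7, against 5941 and 6357 in controls (log2 0.50 and 0.31, SE 0.04, adjusted p = 3.8e-14 and 1.5e-08). With TMEM259 siRNA 5 it read 7147 and 7571 and with siRNA 6 7143 and 7440, against those controls (log2 0.26 and 0.25, SE 0.04, adjusted p = 1.5e-06 and 6e-06). No LAMC1 library of any siRNA overlapped the controls of its table, and no LAMC1 call was lost on leaving out a library. The rise in all 10 rests on 3 pairs of controls, shared as described.

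The LAMC1 promoter is printed for that reason. The window is chr1:183023170-183023469 on the plus strand of GRCh38.p14 from RefSeq, with capitals for matches to GGGCGG on either strand, of which it holds 3, and it holds none to CCAAT or TATAAA.
LAMC1: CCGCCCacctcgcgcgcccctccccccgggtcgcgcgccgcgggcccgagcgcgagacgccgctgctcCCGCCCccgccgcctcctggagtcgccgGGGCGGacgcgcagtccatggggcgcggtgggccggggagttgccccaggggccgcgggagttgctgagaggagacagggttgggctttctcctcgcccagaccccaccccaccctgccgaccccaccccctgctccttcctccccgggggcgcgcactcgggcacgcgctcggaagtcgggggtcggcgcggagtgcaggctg
The beta chains varied more. LAMB3, the beta chain of an epithelial laminin, read 4480 and 4672 with SART1 siRNA 4 and 6705 and 6400 with siRNA 6, against 3011 and 3269 in controls. All 4 SART1 libraries were above the controls (log2 0.54 and 1.06, SE 0.04, adjusted p = 9.9e-11 and 8.1e-16). LAMB3 also rose with both siRNAs of DDX39A (0.38 and 0.97) and FIBP (0.22 and 0.27), and fell by 0.57 with SARNP siRNA 3. LAMB1, a beta chain of widely made laminins, rose with 7 siRNAs by at most 0.28 and fell with both SART1 siRNAs by 0.15 and 0.18. Its rise with DDX39A siRNA 1 (log2 0.13) was lost without either control (log2 0.14 and 0.13) or DDX39A siRNA 1 replicate 2 (log2 0.12). LAMB2, the beta chain of synaptic and glomerular laminins, fell with both SART1 siRNAs (-0.35 and -0.51) and with SARNP siRNA 9 (log2 -0.94, SE 0.07, adjusted p = 4.8e-15).

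LAMA5, the alpha chain of the laminins of mature kidney basement membrane, was low in signal. It read 28 and 28.65 with DDX39A siRNA 1 and 47.26 and 61.75 with siRNA 4, against 14 and 18.16 in controls, without overlap (log2 0.80 and 1.71, SE 0.30, adjusted p = 0.035 and 9e-06). The siRNA 1 call was lost without control replicate 1 (log2 0.61), without DDX39A siRNA 1 replicate 1 (log2 0.82) or 2 (log2 0.78), and when only the compared groups were fitted (log2 0.80, adjusted p = 0.05). LAMA5 read 37.57 and 39.93 with SARNP siRNA 3 and 15.53 and 7.935 with SARNP siRNA 9, against the same controls (log2 1.24 and -0.47, SE 0.30, adjusted p = 0.00087 and 0.18). The siRNA 3 libraries lay above the controls and the siRNA 9 libraries overlapped them.

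HSPG2 encodes perlecan, the large heparan sulfate proteoglycan of basement membranes. It read 6472 and 6955 with DDX39A siRNA 1 and 8728 and 8109 with siRNA 4, against 5078 and 4442 in controls, without overlap (log2 0.50 and 0.82, SE 0.06, adjusted p = 2.1e-08 and 2.3e-14). HSPG2 also rose with TMEM259 siRNA 5 (0.46), and fell with both SART1 siRNAs (-0.33 and -0.18) and FIBP siRNA 7 (-0.19). The FIBP siRNA 7 call was lost without FIBP siRNA 7 replicate 2 (log2 -0.09) or control replicate 2 (log2 -0.17). NID2, a nidogen that bridges laminin and type IV collagen, read 34.78 and 26.8 with DDX39A siRNA 4 and 7.636 and 13.75 with siRNA 1, against 10.61 and 14.95 in controls. It rose with siRNA 4 alone (log2 1.21, SE 0.40, adjusted p = 0.012), a call lost without control replicate 1 (log2 0.98) or DDX39A siRNA 4 replicate 1 (log2 1.03). NID1, also a nidogen, rose with DDX39A siRNA 4 (0.50) and fell with SART1 siRNA 4 (-0.44) and FIBP siRNA 7 (-0.29). The FIBP siRNA 7 call was lost without FIBP siRNA 7 replicate 2 (log2 -0.15), without control replicate 1 (log2 -0.12) or under quantile normalization (log2 -0.26). AGRN, the heparan sulfate proteoglycan agrin, fell with both SART1 siRNAs (-0.48 and -0.60, SE 0.03) and with SARNP siRNA 9 (-0.34). COL18A1, the source of endostatin, rose with both DDX39A siRNAs (0.24 and 0.43), where the siRNA 1 call was lost without control replicate 2 (log2 0.16). Of the 12 basement membrane genes, DDX39A siRNA 4 raised 11 (91.7%), with AGRN at 0.01, beside 81.8% of all 33 matrix genes and 25.3% of all tested genes. Of these, LAMB2 was also lost without control replicate 1 (log2 0.18) or DDX39A siRNA 4 replicate 1 (log2 0.11).

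Fibrillin 1 (FBN1) forms the microfibrils of elastic tissue, onto which latent TGF-beta is docked. The window below is chr15:48644921-48645220 on the minus strand of GRCh38.p14 from RefSeq, and it holds no match to any of the 3 motifs searched, so it is all in lower case.
FBN1: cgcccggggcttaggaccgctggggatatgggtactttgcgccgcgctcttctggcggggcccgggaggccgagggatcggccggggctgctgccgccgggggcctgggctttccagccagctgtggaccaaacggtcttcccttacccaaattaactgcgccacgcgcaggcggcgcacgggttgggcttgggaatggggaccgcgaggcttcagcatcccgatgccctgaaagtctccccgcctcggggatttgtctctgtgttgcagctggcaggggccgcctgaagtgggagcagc
FBN1 read 120.9 and 98.55 with DDX39A siRNA 1 and 214.9 and 231.9 with siRNA 4, against 83.81 and 74.76 in controls. Both were above the controls (log2 0.46 and 1.48, SE 0.14, adjusted p = 0.011 and 4.4e-11), the siRNA 1 call being lost without control replicate 2 (log2 0.38) or DDX39A siRNA 1 replicate 1 (log2 0.31). FBN1 read 113 and 103.5 with FIBP siRNA 7 and 64.94 and 59.93 with siRNA 6, against 55.1 and 41.59 in controls (log2 1.16 and 0.37, SE 0.19, adjusted p = 2.9e-06 and 0.15). Against those controls it read 102.3 and 99.01 with TMEM259 siRNA 5 and 35.94 and 50.45 with siRNA 6 (log2 1.06 and -0.17, SE 0.19, adjusted p = 3e-05 and 0.6). For each of these 3 targets 1 siRNA raised FBN1 by more than 1 on the log2 scale, and FBN1 was called lower with none of the 10 siRNAs.

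LTBP1 and LTBP2 belong to the latent TGF-beta binding proteins, of which LTBP1 carries latent TGF-beta into the matrix and LTBP2 does not bind it. LTBP2 had the largest change of any matrix gene. It read 476.1 and 456.3 with SARNP siRNA 9 and 64.7 and 46.24 with SARNP siRNA 3, against 86.99 and 89.71 in controls. The level was 5.23-fold higher with siRNA 9 (log2 2.39, SE 0.16, adjusted p = 8.7e-16) and lower with siRNA 3 (log2 -0.68, SE 0.16, adjusted p = 0.00058), where leaving out SARNP siRNA 3 replicate 2 gave -0.44 (adjusted p = 0.05). With FIBP, LTBP2 read 55.39 and 49.75 for siRNA 6 and 82.68 and 82.21 for siRNA 7, against 36.03 and 28.36 in controls, all 4 above them (log2 0.70 and 1.34, SE 0.23, adjusted p = 0.022 and 7e-06). The FIBP siRNA 6 call was lost without FIBP siRNA 6 replicate 1 (log2 0.62) or control replicate 2 (log2 0.53).

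LTBP1 read 158.7 and 173.6 with SARNP siRNA 9 and 32.35 and 52.54 with siRNA 3, against 43.5 and 41.65 in controls. It was 3.83-fold higher with siRNA 9 (log2 1.94, SE 0.20, adjusted p = 2.1e-10), and the siRNA 3 libraries lay on both sides of the controls (log2 -0.04, adjusted p = 0.89). With FIBP the direction was the other way from LTBP2. LTBP1 read 36.29 and 40.7 with FIBP siRNA 6 and 24.8 and 15.22 with siRNA 7, against 67.81 and 60.5 in controls, all 4 below them (log2 -0.72 and -1.67, SE 0.23, adjusted p = 0.018 and 1.2e-07). The FIBP siRNA 6 call was lost without FIBP siRNA 6 replicate 1 (log2 -0.64), control replicate 1 (log2 -0.64) or control replicate 2 (log2 -0.80). LTBP3, a further carrier of latent TGF-beta, stood at -0.27 to 0.25. It was called higher with DDX39A siRNA 4 (0.22) and SARNP siRNA 3 (0.25) alone, and both calls were lost on leaving out 1 library. Of 18 calls among these 4 genes, 8 were lost on leaving out 1 library.

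Syndecan 4 (SDC4) is a membrane heparan sulfate proteoglycan that binds fibronectin together with integrins. SDC4 read 8904 and 9472 with SART1 siRNA 4 and 7953 and 7719 with siRNA 6, against 5199 and 5527 in controls. All 4 SART1 libraries were above the controls (log2 0.78 and 0.55, SE 0.04, adjusted p = 5e-14 and 1.7e-11). It also rose with both DDX39A siRNAs, by 0.25 and 0.35. SDC1, the syndecan of epithelia, fell with both SARNP siRNAs (-0.47 and -0.18), with FIBP siRNA 6 (-0.30) and with TMEM259 siRNA 6 (-0.39), and rose by 0.23 with DDX39A siRNA 4.

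VCAN encodes versican, a chondroitin sulfate proteoglycan that binds hyaluronan. It read 15770 and 16270 with SARNP siRNA 3 and 6082 and 6038 with SARNP siRNA 9, against 12060 and 12240 in controls. These stood on opposite sides of the controls without overlap (log2 0.40 and -1.0, SE 0.04, adjusted p = 1.6e-09 and 3.8e-21). With the other siRNAs VCAN stood at -0.22 to 0.22. Among these it was called higher with DDX39A siRNA 1 (0.22), TMEM259 siRNA 5 (0.20) and SART1 siRNA 6 (0.16), and lower with FIBP siRNA 7 (-0.22). The rise of VCAN with SART1 siRNA 6 turned to -0.07 under quantile normalization (adjusted p = 0.08).

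The 2 siRNAs of a target were also compared directly. The controls do not enter that difference, but they are part of the model that estimates its spread. The matrix genes differed between DDX39A siRNA 4 and siRNA 1 in 28 of 33 cases (84.8%), against 50.6% of all tested genes. The counts were 27 (81.8%) for FIBP siRNA 7 and siRNA 6, against 35.7%, and 25 (75.8%) for SART1 siRNA 6 and siRNA 4, against 38.5%. They were 23 (69.7%) for SARNP siRNA 9 and siRNA 3, against 64.1%, and 20 (60.6%) for TMEM259 siRNA 6 and siRNA 5, against 32.1%. The FIBP count was 16 without FIBP siRNA 7 replicate 2.

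Genes called in opposite directions by the siRNAs of 1 target numbered 9 for SARNP (27.3%, against 13% of all tested genes), 5 for SART1 (15.2%, against 2.42%) and 4 for DDX39A (12.1%, against 5.16%). They numbered 3 for FIBP (9.09%, against 2.5%) and 1 for TMEM259 (3.03%, near the 2.17% of all genes). For SARNP, siRNA 3 raised and siRNA 9 lowered FN1 (0.83 and -0.84), VCAN (0.40 and -1.0), COL8A1 (0.48 and -0.92), COL18A1 (0.25 and -0.63) and SERPINE2 (0.14 and -0.14). SARNP siRNA 3 lowered and siRNA 9 raised LTBP2 (-0.68 and 2.39), TNC (-0.75 and 1.03), LAMB3 (-0.57 and 0.43) and SDC4 (-0.44 and 0.31). Of these, COL18A1 with siRNA 3 was lost without control replicate 2 (log2 0.16). SERPINE2 was lost with siRNA 3 without control replicate 1 (log2 0.11), control replicate 2 (log2 0.17) or SARNP siRNA 3 replicate 1 (log2 0.10), and with siRNA 9 without control replicate 2 (log2 -0.11) or SARNP siRNA 9 replicate 2 (log2 -0.10).

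For SART1, siRNA 4 lowered and siRNA 6 raised TNC (-0.31 and 0.61), SERPINE2 (-0.24 and 0.25), COL6A1 (-0.41 and 0.28), COL4A1 (-0.60 and 0.52) and COL4A2 (-0.21 and 0.10, the second reversed to -0.13 under quantile normalization). For DDX39A, siRNA 1 lowered and siRNA 4 raised TGFBI (-0.27 and 0.30), COL6A3 (-1.16 and 0.47) and LTBP2 (-0.57 and 0.81), where LTBP2 with siRNA 1 was lost without DDX39A siRNA 1 replicate 2 (log2 -0.31). COL8A1 went the other way (0.28 and -0.15), its siRNA 4 call being lost without either control or DDX39A siRNA 4 replicate 2 (log2 -0.09). For FIBP, siRNA 6 raised and siRNA 7 lowered SPARC (0.18 and -0.48), TNC (0.36 and -0.21) and COL7A1 (0.32 and -0.19), where COL7A1 with siRNA 7 was lost without FIBP siRNA 7 replicate 2 (log2 -0.10). For TMEM259, siRNA 5 raised and siRNA 6 lowered FN1 (0.58 and -0.11), the second being lost without control replicate 2 (log2 -0.07) or TMEM259 siRNA 6 replicate 1 (log2 -0.08).

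**Figure D5:**
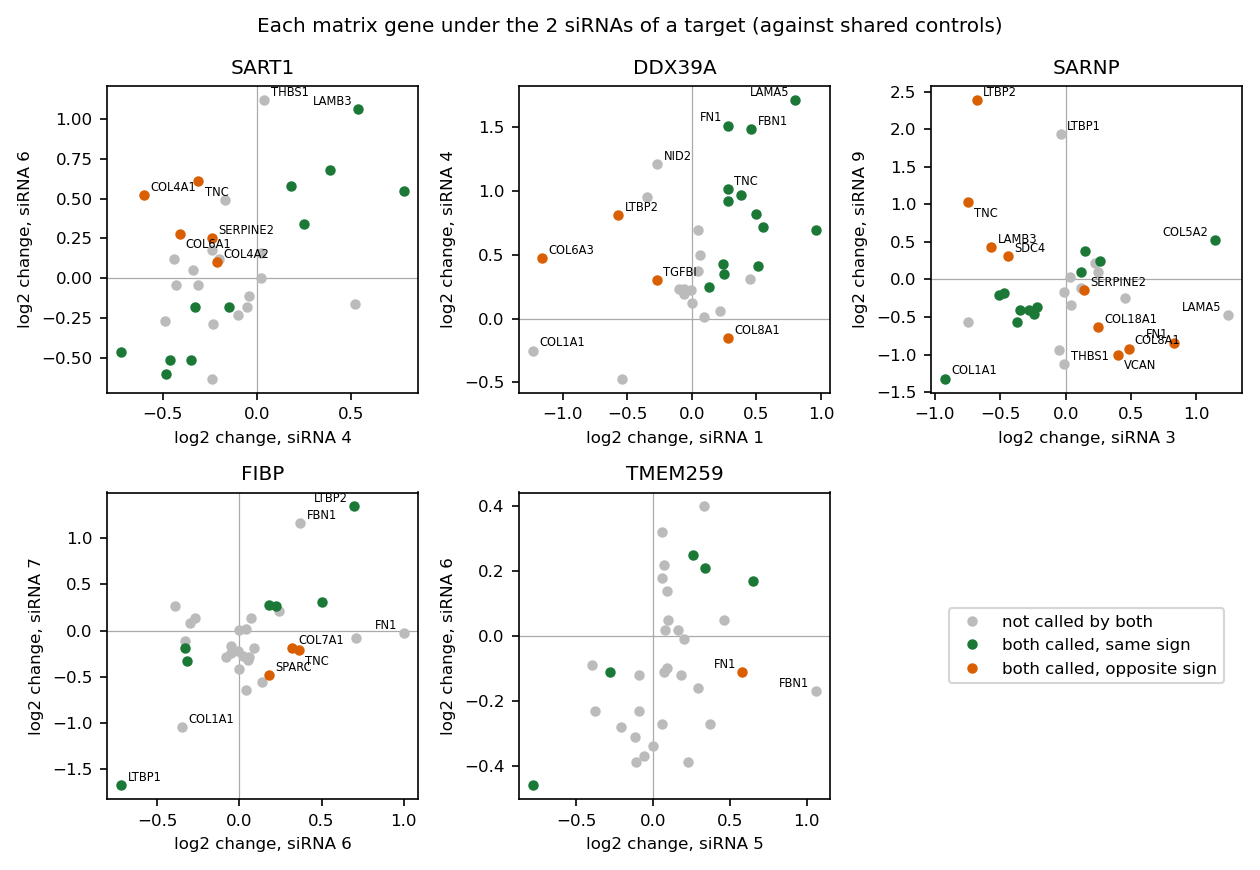
Log2 change of each of the 33 matrix genes with 1 siRNA of a target (horizontal) and with its other siRNA (vertical), over shared controls, in green where both were called with the same sign and in orange where they were called with opposite signs. The SARNP panel holds 9 orange points, among them LTBP2 at -0.68 and 2.39, while the DDX39A panel holds 13 green points, all in the upper right.

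Collagen needs modifying enzymes and chaperones in the endoplasmic reticulum before it is exported and cross-linked, and 30 such genes were followed beside the matrix genes. Of 28 tested with DDX39A siRNA 4, 23 rose (82.1%) and 0 fell, with a median of 0.43, against 25.3% and 23.7% of all genes. DDX39A siRNA 1 raised 7 (25%) and lowered 5 (17.9%), with a median of 0.02, against 17.1% and 16.1% of all genes. The 7 that rose with both, against 8.67% of all genes, included P3H1, a prolyl 3-hydroxylase (0.44 and 0.91), P4HA2, a prolyl 4-hydroxylase subunit (0.61 and 0.68), and the lysyl hydroxylases PLOD2 (0.22 and 0.64) and PLOD1 (0.18 and 0.63). With both SART1 siRNAs 14 of 28 rose (50%) and 3 fell (10.7%), against 22.9% and 20% of all genes. They were led by the cross-linking enzyme LOX (0.86 and 0.42), the prolyl 3-hydroxylase P3H2 (0.49 and 0.61), P4HA2 (0.33 and 0.74) and PLOD2 (0.48 and 0.47). With both SARNP siRNAs 3 rose (10.7%) and 4 fell (14.3%), against 7.17% and 7.15% of all genes, with CREB3L1, a transcription factor of the endoplasmic reticulum membrane, at -0.77 and -1.06 and P3H2 at -0.62 and -0.72. With both FIBP siRNAs 5 of 27 rose (18.5%) and 0 fell, against 4.68% and 4.39% of all genes, led by PLOD2 (0.11 and 0.45). With both TMEM259 siRNAs 2 of 27 rose (7.41%) and 1 fell (3.7%), against 2.56% and 2.41% of all genes, with SERPINH1, the collagen chaperone HSP47, at 0.38 and 0.50 and the transglutaminase TGM2 at -0.55 and -0.51.

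Enzymes that build glycosaminoglycans, the sugar chains of proteoglycans, formed a list of 30 genes, of which 24 were tested. With both SART1 siRNAs 13 rose (54.2%) and 4 fell (16.7%), against 22.9% and 20% of all genes. The counts were 6 higher (25%) and 0 lower for FIBP, against 4.68% and 4.39%, and 4 (16.7%) and 2 (8.33%) for SARNP, against 7.17% and 7.15%. They were 3 (12.5%) and 0 for TMEM259, against 2.56% and 2.41%, and 2 (8.33%) and 1 (4.17%) for DDX39A, near the 8.67% and 6.37% of all genes. CSGALNACT2, which starts chondroitin chains, rose with all 10 siRNAs, as did 0.244% of all genes, by 0.84 and 0.66 for SART1, 0.86 and 1.22 for DDX39A, 0.84 and 1.19 for SARNP, 0.61 and 0.51 for FIBP and 0.52 and 0.76 for TMEM259. CSGALNACT2 read 860.5 and 847 with DDX39A siRNA 4 and 638.9 and 695.6 with siRNA 1, against 349 and 383.4 in controls, without overlap. The hyaluronan synthase HAS3 rose with both SARNP siRNAs (0.50 and 1.31), and the precursor enzyme UGDH with both SART1 siRNAs (0.77 and 0.76).

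Of 60 other matrix proteins, 28 to 30 were tested per table. Both DDX39A siRNAs raised 8 (26.7%) and lowered 1 (3.33%), against 8.67% and 6.37% of all genes, led by MATN2, a matrilin (1.01 and 1.13). Both SART1 siRNAs raised 5 (17.9%) and lowered 6 (21.4%), near the 22.9% and 20% of all genes, with COL17A1, a collagen of hemidesmosomes, at -1.33 and -1.11. Both SARNP siRNAs raised 1 (3.33%) and lowered 5 (16.7%), against 7.17% and 7.15%, with TINAGL1, a basement membrane protein, at -0.82 and -0.16. FIBP had 3 higher (10.3%) and 1 lower (3.45%), against 4.68% and 4.39%, with TINAGL1 at -0.35 and -0.25. TMEM259 had 2 of each (6.9%), against 2.56% and 2.41%, with FSTL1, a secreted glycoprotein, at 0.50 and 0.18. Of 10 matrix receptors other than integrins, 6 were tested. Both SART1 siRNAs raised 1 (16.7%) and lowered 1 (16.7%), against 22.9% and 20% of all genes. Both FIBP siRNAs raised 1 (16.7%) and lowered 0, against 4.68% and 4.39%. The one raised was PLAUR, the urokinase receptor, with SART1 (0.89 and 0.91) and FIBP (0.19 and 0.86). For DDX39A, SARNP and TMEM259, 0 of 6 were called with the same sign by both siRNAs. The shares of all genes higher and lower were 8.67% and 6.37%, 7.17% and 7.15%, and 2.56% and 2.41%. With 6 genes, a count of 0 says little beside those shares.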

How the data were processed

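Poly(A) RNA of 26 libraries was analysed from 3 tables of deposited values. Per the submitters' processing notes, reads were handled with STAR, Picard, HTSeq and DESeq2 on hg19; versions, roles, annotation and strand setting are not given in the sources used here. The authors deposited normalized signal per gene symbol, in which each value is a whole multiple of 1 step per library (within 1e-04 of a read), which gave the gene reads per library. Values were log2-transformed after adding 1, genes with a table mean of at least 10 were kept, and 1 limma 3.58.1 model per table (R 4.3.3, eBayes with trend) gave each contrast, with 3, 5 and 5 residual degrees of freedom for the SART1, DDX39A and SARNP, and FIBP and TMEM259 tables. The prior, taken from genes of similar signal, added 20.5, 31.8 and 38.4 degrees of freedom for these tables. It thus outweighed the spread of a gene's own duplicates. Adjusted p-values are Benjamini-Hochberg over all tested genes. The script was tested on simulated data.

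The genes, lists and the naming rule were chosen with earlier results of these data known. Values per library are given where both siRNAs call a gene with the same sign and a change of at least 0.5, or either by at least 1; values of LAMC1, of COL4A1 and CSGALNACT2 and further ones of FN1 were added after their values were seen. Other lists name up to 4 genes per target called by both siRNAs. P3H1, P3H2 and other renamed genes were matched through RefSeq synonyms. Results were recomputed with a pseudocount of 5, without the filter, with a mean of at least 50, quantile normalization, the compared groups alone, a replicate block and leaving out each library.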

Additional observations from a re-analysis of the deposited data

Results flagged for a closer look

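In 22 cases both siRNAs of a target called a matrix gene in opposite directions and the direct test between the siRNAs (limma, adjusted p below 0.05) also called the difference. After opposite calls in the same model that difference was nearly bound to be called, so the direct test adds no separate evidence. Every difference here is the log2 level with 1 siRNA minus that with the other, named in that order. Opposite calls were also found among all tested genes, at a smaller share than among the matrix genes. The share of matrix genes was 27.3% for SARNP, against 13% of all tested genes, and 12.1% for DDX39A, against 5.16%. It was 9.09% for FIBP, against 2.5%, 15.2% for SART1, against 2.42%, and 3.03% for TMEM259, near 2.17%. No cause was tested.

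For SARNP siRNA 9 minus siRNA 3 the differences were 3.07 for LTBP2, 1.78 for TNC, 1.00 for LAMB3 and 0.74 for SDC4, higher with siRNA 9. They were -1.66 for FN1, -1.40 for VCAN, -1.40 for COL8A1, -0.88 for COL18A1 and -0.28 for SERPINE2, lower with siRNA 9. The adjusted p for SERPINE2 was 4.5e-05, the weakest of these 9.

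For SART1 siRNA 6 minus siRNA 4 the differences were 1.12 for COL4A1, 0.92 for TNC, 0.69 for COL6A1, 0.49 for SERPINE2 and 0.31 for COL4A2. For DDX39A siRNA 4 minus siRNA 1 they were 1.63 for COL6A3, 1.38 for LTBP2, 0.57 for TGFBI and -0.43 for COL8A1. For FIBP siRNA 7 minus siRNA 6 they were -0.67 for SPARC, -0.57 for TNC and -0.51 for COL7A1. For TMEM259 siRNA 6 minus siRNA 5 the difference was -0.70 for FN1.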

How the results depend on the processing

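Of 202 calls of a matrix gene against controls, 202 were kept with a pseudocount of 5 and with no filter, 192 of 192 with a mean of at least 50, 201 with the compared groups alone and 194 with quantile normalization, where 6 were lost and 2 reversed: COL4A2 with SART1 siRNA 6 (-0.13, adjusted p = 0.00069) and the comparison VCAN, SART1 siRNA 6 against its controls (-0.068, adjusted p = 0.08). Leaving out each library in turn kept 721 of 808 and reversed 0, so 159 of the 202 calls held without any 1 library. The count for both TMEM259 siRNAs was 5 and ranged from 3 to 6, and that for FIBP siRNA 7 against siRNA 6 was 27 and ranged from 16 to 23. The difference between replicates 1 and 2 of a group was compared between groups of a table, over genes with a mean of at least 50. These differences correlated at -0.12 to 0.09, so replicates of the same number showed little shared deviation. With the replicate block 201 of 202 calls were kept, and SPARC with TMEM259 siRNA 6 was lost (-0.10, adjusted p = 0.067). Count models were not run on the normalized values. In the DDX39A and SARNP table the low-signal genes LAMA5, NID2 and COL12A1 had SEs of 0.30, 0.40 and 0.44, which limits what could be detected there.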
